A study of Rattus norvegicus with 24 samples.

Results

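The proteasome is the protease that degrades most of a cell's short-lived and damaged proteins after they have been tagged with ubiquitin. Its genes were followed here in the left ventricle apex of rats fed rotenone, a natural pesticide and inhibitor of mitochondrial complex I. The members are all genes whose symbol on the array is Psma, Psmb, Psmc, Psmd, Psme, Psmf or Psmg followed by a number, without pseudogenes and "-like" copies. They number 48 genes, among 68842 transcript clusters (probe sets that each stand for 1 transcribed locus). Where a gene had more than 1 transcript cluster, the one with the highest mean over all arrays stands for it, which concerned 4 genes (Psme2, Psme3, Psmd10 and Psmb8).

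The core particle of the proteasome is a barrel of alpha rings, which gate the entrance, and beta rings, which hold the catalytic sites. A regulatory particle docks on its ends, with ATPases in its base that unfold and thread substrates, and non-ATPase subunits in base and lid that bind ubiquitin and remove it. Inducible catalytic subunits can replace the constitutive ones under interferon to form the immunoproteasome, other activators can replace the regulatory particle, and dedicated chaperones help in the assembly of both particles. Heart muscle depends on this system for the turnover of sarcomere proteins.

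Male RccHan Wistar rats, 7 to 8 weeks old, ate a diet containing rotenone at 400 ppm and were examined at day 1, 3 or 14, while control rats ate the diet without rotenone over the same times. There were 4 rats in each of 6 groups and 1 Affymetrix Rat Transcriptome Array per rat (24 arrays), and rotenone rats were set against the controls of their own day. No control group with matched feed intake is described, and the rotenone rats weighed less. The feed eaten by each group is not given in the sources used here. An effect of rotenone and one of eating less, if they did, cannot be told apart. In bulk tissue, fewer cells of a type and less RNA per cell cannot be told apart either. Values are log2 intensities, and a change is the mean of the rotenone rats minus the mean of the control rats, given ± the standard error (SE) of the limma fit with n = 4 rats per group. Unless stated otherwise, each adjusted p is from limma over all 68842 transcript clusters, and a gene is said to have risen or fallen at adjusted p under 0.05.

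Array medians ran from 30.6 to 36.5 intensity units, and the precision of all changes is limited by the number of arrays. Of all transcript clusters, 10140 (14.7%) had a mean above 8.44 log2 units, which 95% of the 1153 negative controls did not exceed, called the background bound below. Of the 48 proteasome genes, 35 lay above it. The tissue label was checked on cardiomyocyte markers, and all 12 measured ones were above the bound, with a mean level of 17.5 to 17.8 per array. The 10 fibroblast markers had a mean level of 9.84 to 10.15 in the rotenone rats and 11.09 to 11.71 in the control rats of day 14, and 5 of them fell (6 at day 3). The 10 measured erythroid markers had a mean level of 6.97 to 9.71 in the rotenone rats and 10.8 to 12.0 in the control rats of day 14, and all 10 fell (3 at day 3). The part of these markers in the changes of proteasome genes was not tested.

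Transcripts of the proteasome differed little between rotenone and control hearts. After 1 day, 1 of the 48 genes rose (Psmd8), after 3 days 0 passed the test, and after 14 days 1 rose (Psmg4) and 1 fell (Psme4). In the average of the 3 daily effects 6 rose, Psmd8, Psmd4, Psmd11 and Psmd12 of the regulatory particle, Psmb4 of the core particle and the assembly chaperone Psmg4, while Psmd1 of the regulatory particle fell. With the array medians set equal, 1 rose (Psmd8) and 3 fell (Psmd1, Psmd14 and Psmd9) in the average, and Psmd4, Psmd11, Psmd12, Psmb4 and Psmg4 kept their direction but not the call (adjusted p = 0.0734 to 0.184). The largest of these changes was the fall of Psme4, to 0.673-fold of the control level (95% interval 0.555 to 0.815).

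Of the proteasome genes 2.08% were called at day 1, 0% at day 3, 4.17% at day 14 and 14.6% in the average, against 0.49%, 0.84%, 2.89% and 5.59% of all transcript clusters. By direction, 0.199% of all were higher and 0.291% lower at day 1, 0.291% and 0.549% at day 3, and 1.4% and 1.49% at day 14. These shares are set beside those of expressed transcripts, since 35 of the 48 genes lie above the background bound. Of these 35 genes 2.86%, 0%, 2.86% and 17.1% were called, against 2.24%, 2.91%, 10.7% and 18.7% of all transcript clusters above the bound and 3.42%, 4.71%, 15.2% and 27.7% of the 5114 genes with 1 symbol above it. With 35 genes, 2.86% is 1 gene and 17.1% is 6, so the shares on single days rest on 0 or 1 gene. With p adjusted over the 10140 transcript clusters above the bound alone, 4, 3, 8 and 13 of the 35 genes were called on days 1, 3 and 14 and in the average, against 6.34%, 9.23%, 24.3% and 29.7% of all of them. As a share of the 35 this was above the share of all at day 1 and in the average, and below it on days 3 and 14. At an unadjusted p under 0.05, 8, 9 and 12 of the 48 genes differed on the 3 days and 18 in the average, where 8.29%, 10%, 14.7% and 17.2% of all transcript clusters did. Of the 35 genes above the bound 8, 4, 10 and 16 did, beside 1806, 2195, 3473 and 4038 of the 10140 transcript clusters. Of the 5114 genes with 1 symbol 1181, 1517, 1988 and 2529 did. The share of the 35 was above that of the 10140 at day 1 and in the average only, and never above that of the 5114. The median change of the 48 genes was 0.03, 0.07 and 0.06 on days 1, 3 and 14, beside 0.02, 0.03 and 0.04 over all transcript clusters. Above the bound it was 0.06, 0.03 and 0.06 for the 35 genes, -0.11, 0.04 and 0.04 for all transcript clusters, and -0.05, -0.0014 and -0.03 for genes with 1 symbol. Leaving out 1 array moved the median of the 48 genes to between 0.04 and 0.10 at day 3 and between 0.04 and 0.10 at day 14. With the array medians set equal the median of the members became -0.02 at day 1, and with quantile normalization it became 0.13 at day 1 and -0.00023 at day 14, so no common direction of these genes is given. Quantile normalization raised the median of all transcript clusters above the bound by 0.12 at day 1.

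The sizes of the changes were small. Among features above the bound, the median size of a change, with its sign ignored, was 0.11 for proteasome genes and 0.17 for all transcript clusters at day 1. It was 0.10 for proteasome genes and 0.15 for all at day 3, and 0.13 for proteasome genes and 0.20 for all at day 14. For genes with 1 symbol above the bound it was 0.13, 0.16 and 0.19 on these days. At day 1 the signed changes of the 10140 transcript clusters above the bound had a median of -0.11, with 7066 negative and 3074 positive. A size that 90% of features did not exceed was 0.31 for proteasome genes and 0.71 for all at day 14. The spread between rats was smaller too, with a median residual standard deviation (SD) of 0.12 for proteasome genes and 0.21 for all above the bound. The 95% interval of the change lay within ±0.5 log2 units, which is 1.41-fold, for 40 of the 48 genes at day 1, 41 at day 3 and 40 at day 14. In the average of the days it did so for all 48.

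**Figure D1:**
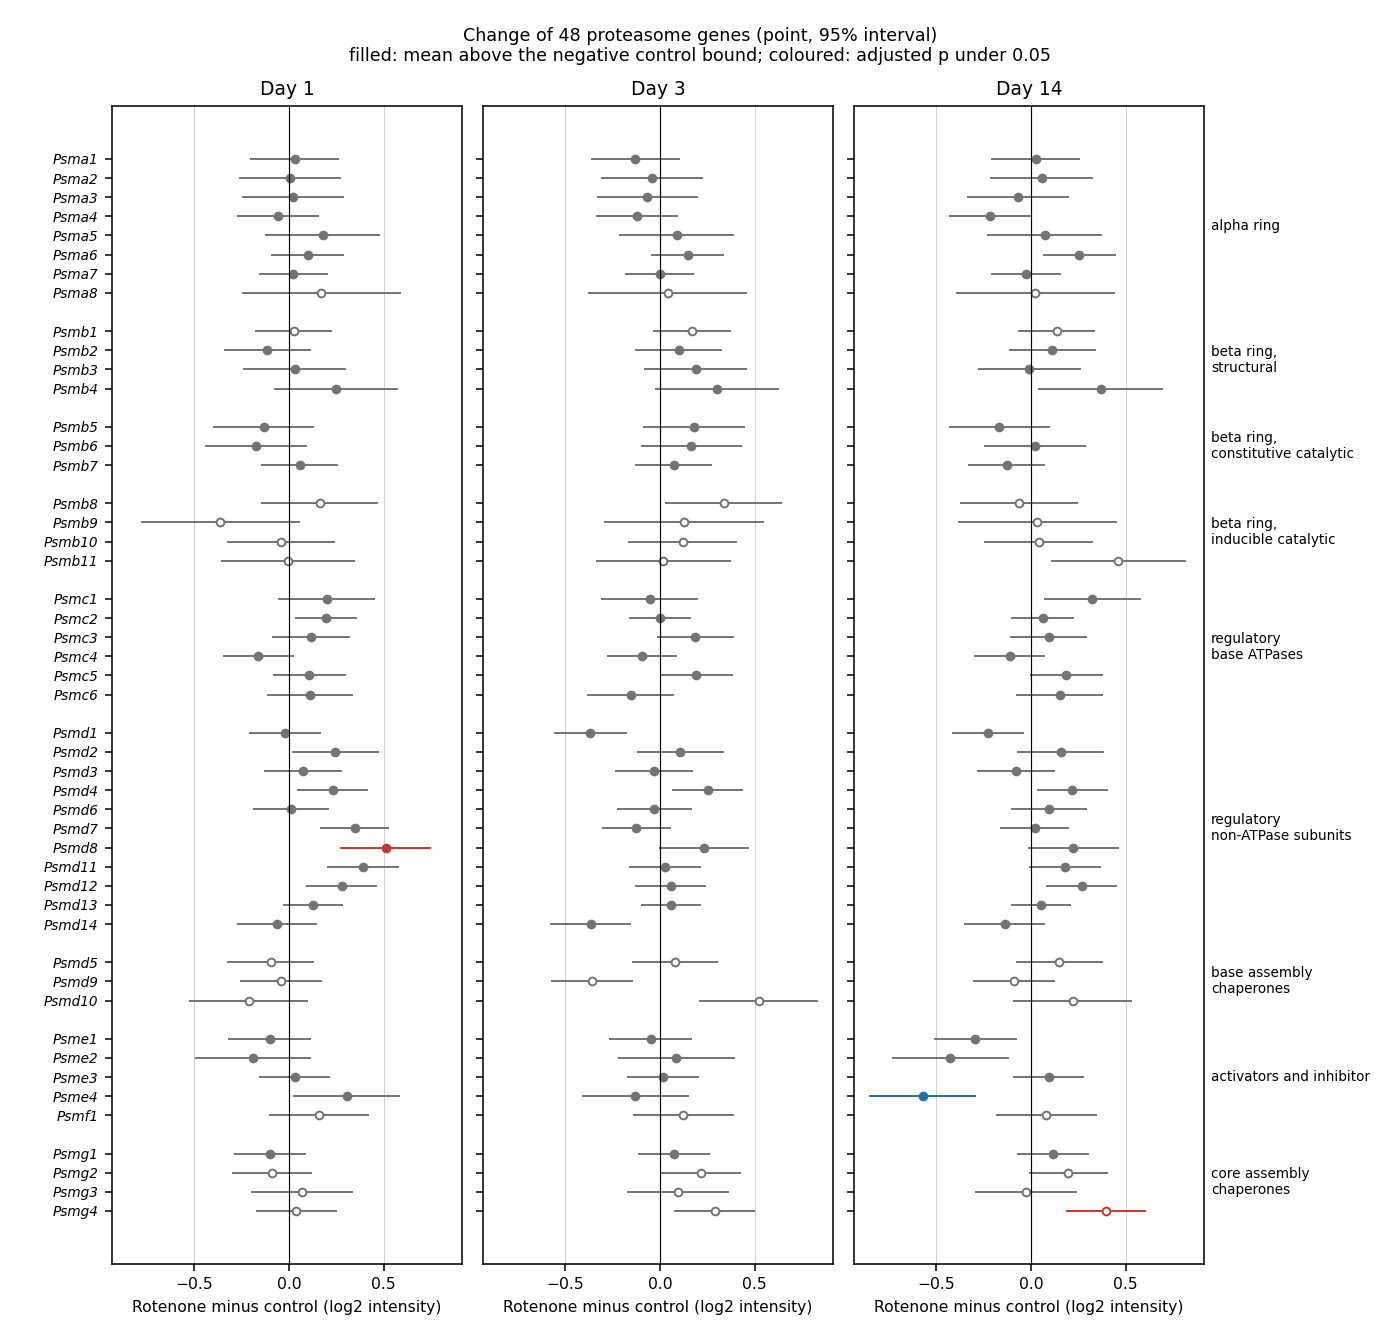
Change of each of the 48 proteasome genes at day 1, 3 and 14, with genes down the page in their subcomplexes and the change, rotenone minus control in log2 intensity, on the horizontal axis. Points are estimates with 95% intervals from limma (n = 4 rats per group), filled where the mean lies above the background bound and coloured at adjusted p under 0.05. Psmd8 at day 1, Psmg4 and Psme4 at day 14 are the coloured genes, and most intervals include 0.

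**Figure D2:**
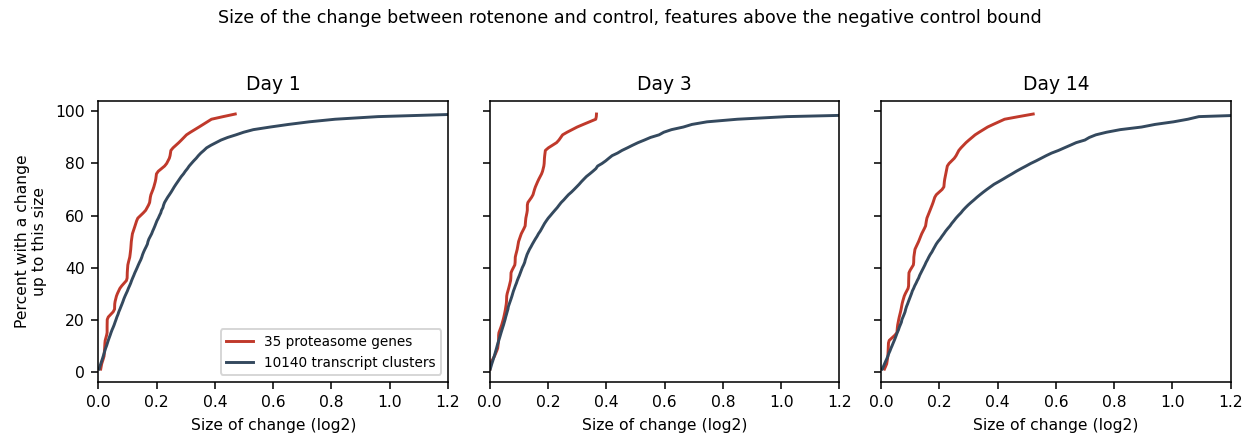
Share of features, in percent, with a change up to the size on the horizontal axis (log2, sign ignored), for the 35 proteasome genes (red) and all 10140 transcript clusters (dark) above the background bound, by day. The curve of the proteasome genes rises more steeply, with a median size of 0.13 against 0.20 at day 14.

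The alpha ring, whose subunits form the gate of the core particle, held 8 genes, of which 0 were called on any day or in the average. Its changes ran from -0.06 to 0.18 at day 1, from -0.13 to 0.15 at day 3 and from -0.22 to 0.25 at day 14. Psma6 had the smallest p of the ring, with 12.37, 12.41, 12.42 and 12.12 in the rotenone rats against 12.11, 12.01, 12.06 and 12.12 in the control rats of day 14. Of the rotenone rats 3 were above all controls and rat 4 lay among them. The change was 0.25 ± 0.09 (adjusted p = 0.149). Psma8, a variant of the ring in testis, had a mean of 3.87, far below the background bound.

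Of the 4 structural subunits of the beta ring, Psmb4 rose in the average of the days by 0.31 ± 0.09 (adjusted p = 0.0474). It had 9.47, 9.32, 9.67 and 9.78 in the rotenone rats against 9.21, 9.42, 9.29 and 9.32 in the control rats of day 1. At day 3 it had 9.59, 9.39, 9.39 and 9.44 in the rotenone rats against 9.34, 9.37, 8.84 and 9.06 in the control rats. At day 14 it had 9.78, 9.64, 9.84 and 9.46 in the rotenone rats against 9.62, 8.88, 9.12 and 9.64 in the control rats. The groups were apart at day 3 only and overlapped at days 1 and 14. The call was kept only without rotenone rat 2 of day 1, control rats 1 or 2 of day 3, rotenone rat 4 of day 14, or control rats 1 or 4 of day 14, and it was lost without each of the other 18 arrays. Its adjusted p ran from 0.024 to 0.0902 over these cases. Psmb1, Psmb2 and Psmb3 had changes of -0.11 to 0.19 that did not pass, and Psmb1 lay below the bound (mean 7.02).

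The constitutive catalytic subunits showed no called change. Psmb5, which carries the chymotrypsin-like site, changed by -0.13 ± 0.13, 0.18 ± 0.13 and -0.17 ± 0.13 on days 1, 3 and 14. Psmb6, with the caspase-like site, changed by -0.18 ± 0.13, 0.17 ± 0.13 and 0.02 ± 0.13, and Psmb7, with the trypsin-like site, by 0.06 ± 0.09, 0.07 ± 0.09 and -0.13 ± 0.09. The 95% interval of the change averaged over the days was -0.19 to 0.11 for Psmb5, -0.15 to 0.16 for Psmb6 and -0.11 to 0.11 for Psmb7.

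The inducible catalytic subunits all lay below the background bound, so the sizes of their changes are uncertain and no fold is given. Psmb8, the counterpart of Psmb5, had 7.26, 7.54, 7.48 and 7.76 in the rotenone rats against 7.42, 7.19, 7.14 and 6.94 in the control rats of day 3. The groups overlapped through rotenone rat 1 and control rat 1, and the change of 0.34 ± 0.15 did not pass the test (adjusted p = 0.419). Psmb9, the counterpart of Psmb6, had 7.04, 6.89, 7.09 and 6.61 in the rotenone rats against 7.00, 7.52, 7.11 and 7.44 in the control rats of day 1. Its change was -0.36 ± 0.20 (adjusted p = 0.678), and it was 0.13 ± 0.20 at day 3 and 0.03 ± 0.20 at day 14. Psmb10, the counterpart of Psmb7, changed by -0.04, 0.12 and 0.04 on the 3 days. Psmb11, the form of thymus, had 6.86, 6.65, 6.91 and 7.11 in the rotenone rats against 6.40, 6.21, 6.56 and 6.52 in the control rats of day 14, without overlap. Its change of 0.46 ± 0.17 did not pass (adjusted p = 0.165).

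An inducible subunit takes the place of its constitutive counterpart in the beta ring, so the difference of each pair was taken within each array and its change was tested. The level of this difference compares separate probes and has no meaning of its own. For Psmb8 minus Psmb5 the rotenone rats were above the control rats by 0.30 ± 0.17 at day 1, 0.16 ± 0.22 at day 3 and 0.10 ± 0.23 at day 14 (± SE, n = 4 each). For Psmb9 minus Psmb6 the changes were -0.19 ± 0.17, -0.04 ± 0.29 and 0.01 ± 0.22, and for Psmb10 minus Psmb7 they were -0.10 ± 0.15, 0.05 ± 0.14 and 0.17 ± 0.10. The groups overlapped in each case. Exact two-sided permutation tests gave p between 0.171 and 0.971 over these 9 comparisons, and the lowest value adjusted by Benjamini-Hochberg was 0.77, where 4 against 4 rats allow a smallest p of 0.0286. Over 9 tests, a single comparison at that smallest p could not pass after adjustment, so a switch of 1 pair on 1 day could not have been called.

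**Figure D3:**
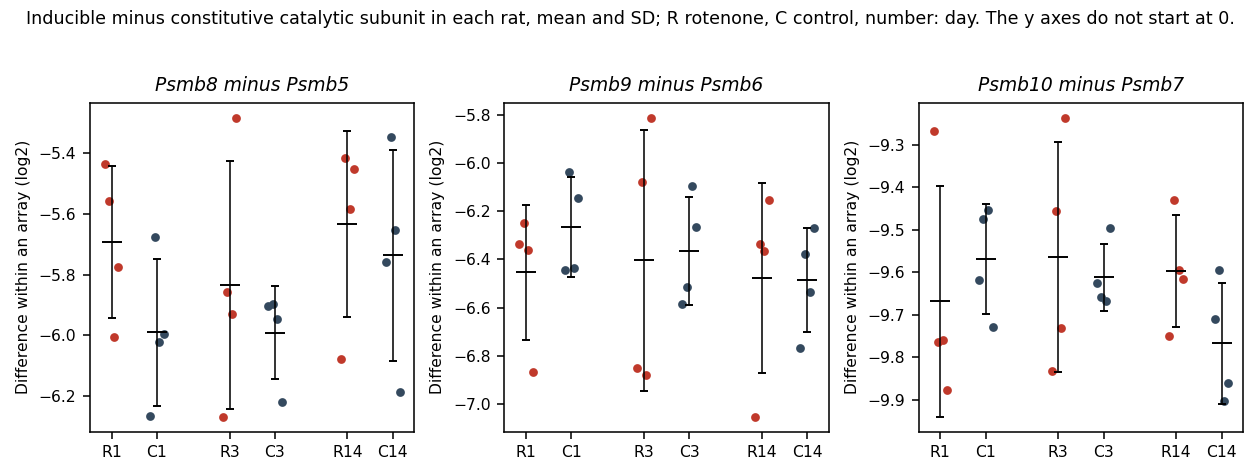
Difference between an inducible and its constitutive catalytic subunit within each array (log2), for 3 pairs and 6 groups of 4 rats, as points with mean and SD. The rotenone (red) and control (dark) rats of a day overlap in each panel, and the vertical axes do not start at 0.

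Of the 17 measured leukocyte markers, the cells in which immunoproteasomes are most abundant, 2 lay above the bound (Cd4 and Cybb), and 0 were called on any day (1 at an unadjusted p under 0.05 at day 3, 0 on the other days). Without a test of their direction, 8 of 17 were lower at day 1, 16 of 17 at day 3 (median change -0.14) and 14 of 17 at day 14 (median change -0.08). Of all 68842 transcript clusters, 31470, 30505 and 29111 were lower on these days. The mean level of the leukocyte markers per array was 6.34 to 6.69 in the rotenone rats and 6.43 to 6.97 in the control rats of day 14. Genes of antigen presentation and of the interferon response were measured for 27 of 29, with a median change of 0.03, 0.12 and -0.05 on days 1, 3 and 14. At day 14, 2 of them fell (7.41%), and 8 of the 27 lie above the bound. On that day 2.89% of all transcript clusters were called in either direction. Above the bound it was 10.7% of transcript clusters and 15.2% of genes with 1 symbol. Erap1, which trims peptides for presentation, had 10.15, 10.11, 10.22 and 10.12 in the rotenone rats against 10.74, 10.58, 10.54 and 10.58 in the control rats, a fall without overlap of 0.46 on the log2 scale (adjusted p = 0.00634). Rsad2, an interferon-induced antiviral protein, had 7.79, 7.96, 8.16 and 8.08 in the rotenone rats against 9.61, 8.55, 10.43 and 9.03 in the control rats and fell by 1.41 (adjusted p = 0.0361). Of the 27 genes 0 rose on any day or in the average.

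The chaperones of core assembly are Psmg1 to Psmg4. Psmg4, which works on the alpha ring together with Psmg3, had 6.51, 6.89, 6.52 and 6.51 in the rotenone rats of day 14 against 6.26, 6.19, 6.17 and 6.22 in the control rats. All rotenone rats were above all controls, and rotenone rat 2 stood apart. The rise was 0.40 ± 0.10 (adjusted p = 0.0316), and 0.30 without that rat, where it did not pass (adjusted p = 0.121). The call of Psmg4 was kept without rotenone rat 1 or control rat 1 and lost without any of the other 6 arrays of that day (adjusted p = 0.0518 to 0.121). It was also lost with the array medians set equal (adjusted p = 0.147) or quantile normalization (adjusted p = 0.0763). At day 3 it had 6.30, 6.31, 6.29 and 6.38 in the rotenone rats against 6.05, 6.19, 6.00 and 5.88 in the control rats, again without overlap, a change of 0.29 ± 0.10 (adjusted p = 0.238). All of these values lie below the background bound. Psmg1, Psmg2 and Psmg3 did not pass on any day, with changes between -0.10 and 0.22.

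The ATPases of the regulatory base, Psmc1 to Psmc6, had changes of -0.16 to 0.20 at day 1, -0.16 to 0.19 at day 3 and -0.11 to 0.32 at day 14, and 0 of 6 were called. Psmc1 had the smallest p, with 13.28, 13.73, 13.78 and 13.32 in the rotenone rats against 13.29, 12.94, 13.43 and 13.14 in the control rats of day 14. Of the rotenone rats, 2 were above all controls and the others among them, and the change was 0.32 ± 0.12 (adjusted p = 0.172).

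Most of the called genes belong to the non-ATPase subunits of the regulatory particle, with 4 of 11 higher and 1 lower in the average of the days. All 11 lie above the bound, where 8.03% of transcript clusters were called higher and 10.6% lower in the average (2.52% and 3.07% of all). Of the 5114 genes with 1 symbol above the bound, 576 were called higher and 840 lower in the average, together 27.7%. With the array medians set equal, 1 of the 11 was higher (Psmd8) and 2 were lower (Psmd1 and Psmd14). The promoters of 5 called genes are printed here, each as 300 bases that span the transcription start, to show the sequence in front of genes that rose (Psmd8, Psmd4, Psmg4) and fell (Psmd1, Psme4). They are RefSeq sequences of assembly GRCr8, given 5′ to 3′ on the strand of the gene. Capitals mark matches on either strand to TGACNNNGC, the core of the antioxidant response element that Nfe2l1 and related factors bind, or to the core of the interferon-stimulated response element (GAAA, any 2 bases, GAAA).
Psmd8 (chr1:93608640-93608939, minus strand): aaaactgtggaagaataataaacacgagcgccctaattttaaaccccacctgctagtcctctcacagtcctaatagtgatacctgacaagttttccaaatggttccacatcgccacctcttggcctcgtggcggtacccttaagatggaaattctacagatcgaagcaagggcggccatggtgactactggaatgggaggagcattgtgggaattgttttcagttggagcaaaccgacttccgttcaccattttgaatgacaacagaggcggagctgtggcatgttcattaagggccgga
Psmd4 (chr2:185297152-185297451, minus strand): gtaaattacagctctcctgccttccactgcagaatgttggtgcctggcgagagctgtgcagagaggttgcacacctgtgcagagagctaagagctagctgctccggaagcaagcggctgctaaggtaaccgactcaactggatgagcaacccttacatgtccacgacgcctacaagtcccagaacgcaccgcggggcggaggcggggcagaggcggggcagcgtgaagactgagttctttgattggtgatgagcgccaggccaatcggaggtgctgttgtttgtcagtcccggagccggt
Psmg4 (chr17:30923324-30923623, minus strand): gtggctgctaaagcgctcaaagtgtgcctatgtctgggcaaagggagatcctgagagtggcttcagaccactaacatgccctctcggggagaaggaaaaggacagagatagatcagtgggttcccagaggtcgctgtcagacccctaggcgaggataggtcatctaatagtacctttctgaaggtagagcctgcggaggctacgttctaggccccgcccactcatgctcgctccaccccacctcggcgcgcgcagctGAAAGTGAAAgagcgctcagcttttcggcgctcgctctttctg
Psmd1 (chr9:94157721-94158020, plus strand): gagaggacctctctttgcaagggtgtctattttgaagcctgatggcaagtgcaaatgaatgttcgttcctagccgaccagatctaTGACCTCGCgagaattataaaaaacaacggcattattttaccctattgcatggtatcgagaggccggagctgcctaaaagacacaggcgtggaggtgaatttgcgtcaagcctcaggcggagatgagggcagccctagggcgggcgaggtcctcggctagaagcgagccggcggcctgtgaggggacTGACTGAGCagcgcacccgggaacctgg
Psme4 (chr14:108706393-108706692, plus strand): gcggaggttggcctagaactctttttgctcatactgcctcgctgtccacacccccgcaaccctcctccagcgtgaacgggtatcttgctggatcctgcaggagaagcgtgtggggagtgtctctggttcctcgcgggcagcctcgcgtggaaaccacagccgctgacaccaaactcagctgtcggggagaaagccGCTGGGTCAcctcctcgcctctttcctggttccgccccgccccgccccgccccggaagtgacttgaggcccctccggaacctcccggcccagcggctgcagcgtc

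The antioxidant core occurred at 2 places in the promoter of Psmd1 (from positions 86 and 273 of the window) and at 1 in that of Psme4 (from position 196). It was not in the windows of Psmd8, Psmd4 and Psmg4. Of the called genes not printed, Psmb4 and Psmd11 lacked it too, and Psmd12 had no promoter in the table. Psma3, Psmb2, Psmb5, Psmb6, Psmd3 and Psmd9 held it and were not called. The interferon core occurred in the promoter of Psmg4 (from position 258). Of the 43 proteasome genes with a promoter in the table, 8 (18.6%) held the antioxidant core, against 12.1% of 33469 promoters. The interferon core was in 7 (16.3%) against 3.92%, and included Psmb8, Psmb10 and Psme2. The gamma-activated site TTCNNNGAA was in 4 (9.3%) against 8.87%, and the CCAAT box in 21 (48.8%) against 37.5%. A match describes these letters only, and none of these shares was tested.

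Psmd8, a subunit of the lid of the regulatory particle, had 9.36, 9.01, 9.23 and 9.44 in the rotenone rats against 8.69, 8.76, 8.76 and 8.79 in the control rats of day 1. All rotenone rats were above all controls, with rotenone rat 2 the closest to them. The rise was 0.51 ± 0.11, which is 1.43-fold (95% interval 1.21 to 1.68, adjusted p = 0.04). The same order held at day 3, with 8.97, 8.98, 8.85 and 8.88 in the rotenone rats against 8.74, 8.76, 8.65 and 8.59 in the control rats, a change of 0.23 ± 0.11 (adjusted p = 0.502). At day 14 it had 8.98, 8.91, 9.26 and 8.76 in the rotenone rats against 8.90, 8.50, 8.74 and 8.88 in the control rats, with overlap, a change of 0.22 ± 0.11 (adjusted p = 0.373). In the average of the days it rose by 0.32 ± 0.07 (adjusted p = 0.00334), a call kept on leaving out any 1 of the 24 arrays, as were the average calls of Psmd4, Psmd11, Psmd12, Psmd1 and Psmg4. The call of day 1 was kept only without rotenone rat 2 (adjusted p = 0.0184) and was lost without any of the other 7 arrays of that day (adjusted p = 0.0837 to 0.174). It was lost as well with the array medians set equal (adjusted p = 0.162).

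Psmd4, a receptor for ubiquitin chains, showed about the same change on each day. It had 10.54, 10.40, 10.45 and 10.69 in the rotenone rats against 10.34, 10.31, 10.32 and 10.17 in the control rats of day 1. It had 10.53, 10.35, 10.58 and 10.40 in the rotenone rats against 10.14, 10.24, 10.22 and 10.26 in the control rats of day 3. It had 10.57, 10.63, 10.67 and 10.50 in the rotenone rats against 10.42, 10.31, 10.26 and 10.51 in the control rats of day 14. The groups did not overlap at days 1 and 3, and at day 14 control rat 4 lay just above rotenone rat 4. The changes of 0.23, 0.25 and 0.22 (± 0.09 each) did not pass on any single day (adjusted p = 0.426, 0.244 and 0.22), and the average of 0.23 ± 0.05 did (adjusted p = 0.00603).

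Psmd11, a lid subunit that holds the regulatory particle on the core, had 11.02, 10.75, 10.86 and 11.08 in the rotenone rats against 10.44, 10.61, 10.62 and 10.49 in the control rats of day 1, without overlap. Its change of 0.39 ± 0.09 narrowly missed the threshold on that day (adjusted p = 0.0515) and passed it without rotenone rat 2 (adjusted p = 0.0279), and the average of the days was 0.20 ± 0.05 (adjusted p = 0.0225). Psmd12, another lid subunit, had 12.77, 12.57, 12.80 and 12.95 in the rotenone rats against 12.50, 12.55, 12.53 and 12.40 in the control rats of day 1. It had 12.82, 12.76, 12.86 and 12.67 in the rotenone rats against 12.51, 12.46, 12.60 and 12.46 in the control rats of day 14. The groups were apart on both days, the changes were 0.28 and 0.27 (± 0.09 each), and that of day 3 was 0.06. The average was 0.20 ± 0.05 (adjusted p = 0.0179).

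Psmd1, the large scaffold subunit of the base, was lower in rotenone hearts. It had 13.10, 12.98, 12.86 and 12.96 in the rotenone rats against 13.32, 13.37, 13.45 and 13.22 in the control rats of day 3. It had 13.35, 13.13, 13.13 and 13.01 in the rotenone rats against 13.31, 13.38, 13.43 and 13.43 in the control rats of day 14. All rotenone rats were below all controls at day 3, and at day 14 rotenone rat 1 lay among the controls. The changes were -0.02, -0.37 and -0.23 (± 0.09 each) on days 1, 3 and 14, with an adjusted p of 0.0542 at day 3. In the average it fell by 0.20 ± 0.05 (adjusted p = 0.0183, and 0.112 with quantile normalization). Psmd14, the deubiquitinase of the lid, also lay below all controls in each rotenone rat of day 3, a change of -0.37 ± 0.10 that did not pass (adjusted p = 0.099).

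**Figure D4:**
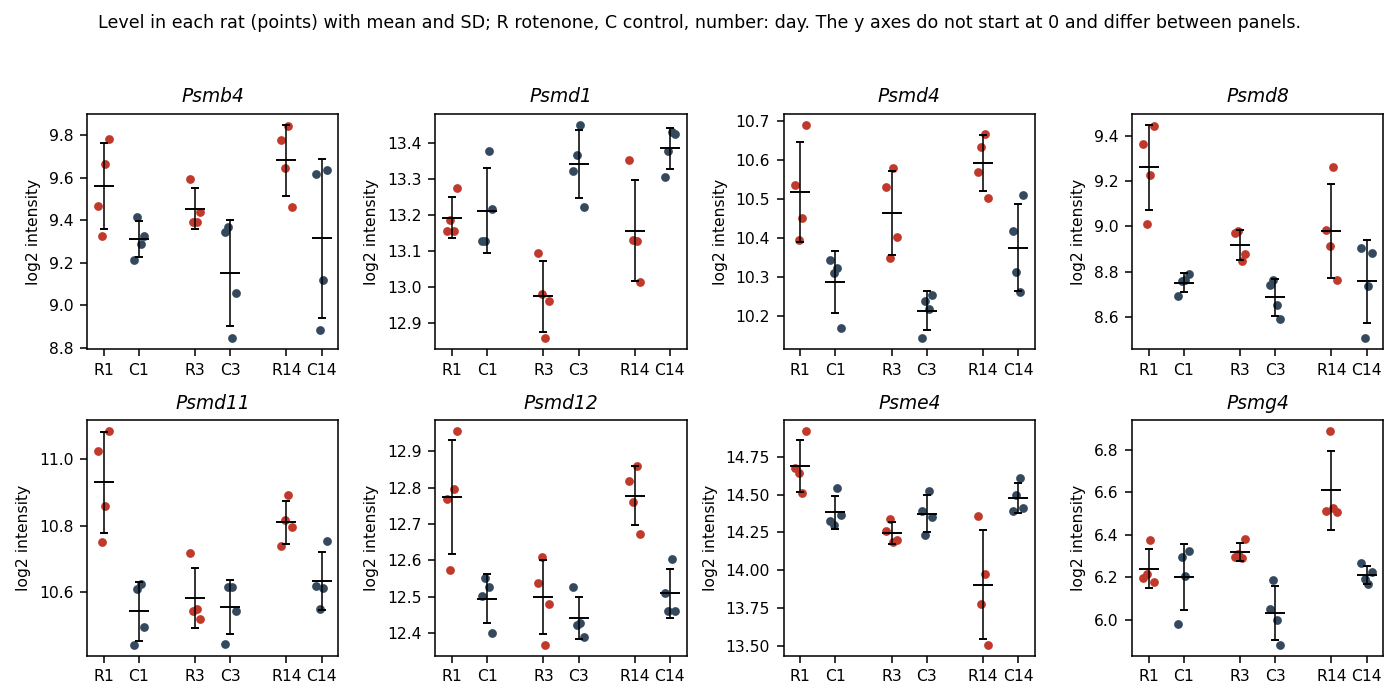
Log2 intensity in each rat (points) with mean and SD for the 8 proteasome genes that passed the test on a day or in the average of the days. Rotenone groups (R, red) stand left of the control group of the same day (C, dark), the number gives the day, and the vertical axes differ between panels and do not start at 0. Psmd8 at day 1 and Psme4 at day 14 show the groups apart in opposite directions.

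On single days, genes of the regulatory particle also made up the 7 proteasome genes whose rotenone values were all above the control values at day 1, namely Psmc1, Psmc2, Psmd4, Psmd7, Psmd8, Psmd11 and Psmd12. No proteasome gene had all rotenone values below the controls on that day. Over all transcript clusters 5.72% did not overlap at day 1 in either direction, and 14.3% of those above the bound. All 7 genes lie above the bound. In the higher direction alone, 1952 of all 68842 transcript clusters did not overlap, 500 of the 10140 above the bound and 409 of the 5114 genes with 1 symbol above it. Psmd7, the partner of the deubiquitinase, had 13.75, 13.62, 13.76 and 13.83 in the rotenone rats against 13.48, 13.26, 13.52 and 13.31 in the control rats, a change of 0.35 ± 0.08 (adjusted p = 0.0745). At day 3, 7 proteasome genes lay above and 4 below without overlap (6.93% of all transcript clusters, 17.2% of those above the bound), and at day 14, 5 above and 2 below (7.75% and 18.7%). Among the 35 genes above the bound, 5 lay above and 3 below at day 3, and 3 above and 2 below at day 14. Psmd4, Psmd8, Psmd12, Psmc5 and Psmg4 lay above on 2 of the 3 days, and 0 genes did so on all of them.

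The chaperones of base assembly, Psmd5, Psmd9 and Psmd10, all lay below the background bound and 0 of them passed. Psmd10, also known as gankyrin, had 7.99, 8.41, 7.93 and 8.41 in the rotenone rats against 7.82, 7.89, 7.74 and 7.19 in the control rats of day 3. The groups did not overlap, and the change was 0.52 ± 0.15 (adjusted p = 0.115). A dimmer transcript cluster of Psmd10 had a change of 0.16 ± 0.13 on that day (adjusted p = 0.772). Psmd9 had 7.45, 7.65, 7.42 and 7.64 in the rotenone rats against 7.98, 7.74, 8.00 and 7.87 in the control rats of that day, also without overlap but below, a change of -0.36 ± 0.10 (adjusted p = 0.117).

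Among the activators, Psme4, a large protein that caps the core in the nucleus and promotes ATP-independent degradation, had 14.36, 13.78, 13.97 and 13.51 in the rotenone rats of day 14 against 14.39, 14.50, 14.61 and 14.41 in the control rats. All rotenone rats were below all controls, rotenone rat 1 only just, and their SD of 0.36 was wider than that of the controls, 0.10. The fall was 0.57 ± 0.13 on the log2 scale (adjusted p = 0.0208). At day 1 it had 14.68, 14.64, 14.51 and 14.92 in the rotenone rats against 14.32, 14.30, 14.54 and 14.36 in the control rats, with rotenone rat 3 just below the highest control, a change of 0.30 ± 0.13 (adjusted p = 0.548). The call of day 14 was kept without rotenone rats 1 and 3 and control rats 1 and 4. It was lost without rotenone rat 2 (adjusted p = 0.0715) or 4 (0.0925) and without control rat 2 (0.0505) or 3 (0.0709), with changes between -0.72 and -0.44 over the 8 cases. When the 8 arrays of a day were fitted alone, none of the single-day calls of Psmd8, Psme4 and Psmg4 remained (adjusted p = 0.227, 0.229 and 0.231).

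The effect on Psme4 at day 14 minus that at day 1 was -0.88 ± 0.19, the largest difference between days among the 48 genes, and did not pass either (adjusted p = 0.0906). Over all transcript clusters 0.0843% were called for that difference. The limma F-test for effects that differ between the days called 0 of the 48 proteasome genes (5 at an unadjusted p under 0.05) and 0.0145% of all transcript clusters. Its adjusted p for Psme4 was 0.23, and 0 of the 48 were called for day 3 against day 1 or day 14 against day 3 (8 and 3 at an unadjusted p under 0.05, 0% of all called). With p adjusted over the transcript clusters above the bound alone the F-test called 2 of the 35, Psmd7 and Psme4, and over all transcript clusters it called Psme4 without rotenone rat 1 of day 14. In control rats, day 14 against day 1 called 0 of the 48 by limma (1 at an unadjusted p under 0.05) and 0% of all transcript clusters.

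Psme1 and Psme2 form the activator ring that interferon induces. Psme1 had 13.19, 12.86, 13.08 and 12.97 in the rotenone rats against 13.37, 13.42, 13.08 and 13.40 in the control rats of day 14, with control rat 3 among the rotenone rats. Psme2 had 9.25, 9.41, 9.21 and 9.00 in the rotenone rats against 9.55, 9.59, 9.53 and 9.91 in the control rats of that day, without overlap. Neither the change of Psme1, -0.29 ± 0.10 (adjusted p = 0.142), nor that of Psme2, -0.42 ± 0.15 (adjusted p = 0.132), passed. The identifier of this Psme2 transcript cluster names chromosome 1, where RefSeq has the gene on chromosome 15. A dimmer cluster of Psme2 on chromosome 15 changed by -0.18 at day 14 (adjusted p = 0.568). For the other 47 genes the chromosome of the identifier was that of RefSeq. Psme3, the nuclear relative of Psme1, and Psmf1, an inhibitor of the core, had changes of 0.02 to 0.16 over the days that did not pass.

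Of 27 listed genes around the proteasome and the ubiquitin system, 21 were measured. Nfe2l1, the transcription factor that raises proteasome genes when proteasome activity is short, had 10.58, 10.49, 10.19 and 10.67 in the rotenone rats against 9.78, 9.79, 10.02 and 9.71 in the control rats of day 1. It was higher in all rotenone rats, by 0.66 ± 0.11 (adjusted p = 0.004), its changes were 0.22 at day 3 and -0.01 at day 14, and it rose in the average as well (0.29 ± 0.06, adjusted p = 0.00538). Pomp, which helps the beta ring mature, rose in the average of the days by 0.33 ± 0.08 (adjusted p = 0.0198). Its largest single-day change was at day 3, with 13.77, 13.86, 13.69 and 13.59 in the rotenone rats against 13.11, 13.23, 12.87 and 13.61 in the control rats. Control rat 4 lay just above rotenone rat 4, and that change of 0.52 ± 0.14 did not pass (adjusted p = 0.101). Ube3c, a ubiquitin ligase that works at the proteasome, fell in the average by 0.25 ± 0.05 (adjusted p = 0.00393). It had 10.87, 10.87, 10.75 and 10.84 in the rotenone rats against 10.97, 11.11, 11.13 and 11.12 in the control rats of day 1. The other 18 genes did not pass on any day or in the average. Of the 21 genes, 15 lie above the bound, and 4.76% were called at day 1 and 14.3% in the average. Above the bound, 2.24% and 18.7% of transcript clusters and 3.42% and 27.7% of genes with 1 symbol were called (0.49% and 5.59% of all transcript clusters). The calls of these genes were not rerun with an array left out or with other scaling.

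Proteasome genes varied together from rat to rat. After the group means were removed, the 595 pairs among the 35 genes above the bound had a median Pearson r of 0.36 over the 24 arrays, and 92.9% of the pairs were positive. A proteasome gene and another transcript cluster above the bound had a median r of -0.05, and 44.6% were positive. Pairs among other genes of similar level were not examined, so the positive r is not shown to be particular to the proteasome. The median was 0.41 for the 103 pairs within a subcomplex and 0.35 for the 492 pairs between subcomplexes. Psmd8 had the highest median r with the other members, 0.49, and Psme1 and Psme2 the lowest, 0.16 and 0.05. The arrays share tissue pieces, RNA and hybridization among all genes, so this is a description, and genes are not independent. The median deviation of the 35 genes from their own means ran from -0.09 to 0.20 in the rotenone rats and from -0.06 to -0.00081 in the control rats of day 1. It ran from -0.07 to 0.11 in the rotenone rats and from -0.10 to 0.10 in the control rats of day 14. Among the rotenone rats of day 1, rat 2 had the lowest value, and it also had the lowest Psmd8, Psmd11 and Psmd12.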

How the data were processed

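Each RNA sample, from 30 mg of left ventricle apex, was put on its own array by the authors. The deposited values are linear intensities per transcript cluster, which the authors had corrected for GC content and processed by signal space transformation and RMA averaging. Versions of software, build and annotation: not given in the sources used here. RMA draws dim values together, so changes near background may be understated.

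The deposited intensities were taken as log2, and no normalization was added. From 70580 transcript clusters 1738 controls were removed, which left 68842 tested. Symbols came from a platform list (1 of them updated by Entrez identifier). Chromosomes and promoters came from RefSeq tables of GRCr8. Not counted were 17 transcript clusters of pseudogenes, like-copies and interacting proteins. Limma 3.58.1 in R 4.3.3 fitted 6 group means over 24 arrays, so an SE rests on the spread pooled over all groups. P-values were adjusted by Benjamini-Hochberg and called at 0.05. On data simulated after the day 3 comparison (68842 transcript clusters) 10.4% of 1.5-fold, 62.7% of 2-fold and 95.5% of 4-fold changes were found, with 5 false among 117 calls. That simulation had the spread of all transcript clusters (median residual SD 0.27), where proteasome genes had 0.13.

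Members, lists and tests were chosen with earlier results of these data known. Genes named with values were each called member, Psmb5 to Psmb10, Psme1, Psme2, Psmd9 and the member of each subcomplex with the smallest p on any day, 21 in all, and each called gene of the other lists. Psmd7, Psmd14 and the dimmer Psme2 and Psmd10 transcript clusters were added after their values were seen. The alternatives changed the scaling between arrays (equal medians, quantiles). They also changed the transcript clusters tested (above the median or the background bound, 1 per gene, the mean per gene). The fit was changed as well (trend with robust variances, array weights, replicate block, the 8 arrays of a day, each array left out). A factorial test after that of the methods, without its criterion on time alone, was added. Figures used matplotlib 3.10.9 in Python 3.11.15.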

Additional observations from a re-analysis of the deposited data

Results flagged for a closer look

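Within each group of 4 rats, a value was set apart when its gap to the nearest other rat was a larger part of the group's range than the 95% critical value of Dixon's test. Of 132 groups checked, which are the named genes and the median of all members in 6 groups each, 7 had such a value, and chance alone gives about 1 in 20, or 6.6. Psmg4 stood at 6.89 in rotenone rat 2 of day 14, where the others had 6.51 to 6.52, and the call of that gene was lost without this rat. Psma6 stood at 12.12 in rotenone rat 4 of day 14, where the others had 12.37 to 12.42. Psmb9 stood at 6.56 in rotenone rat 1 of day 14, where the others had 7.18 to 7.27. Psmd11 stood at 10.72 in rotenone rat 1 of day 3, where the others had 10.52 to 10.55. In control rats, Psmb6 stood at 13.13 in rat 3 of day 3 (others 13.46 to 13.53). Psme1 stood at 13.08 in control rat 3 of day 14 (others 13.37 to 13.42), and Psme2 at 9.91 in control rat 4 of day 14 (others 9.53 to 9.59). The rats concerned differ from gene to gene.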

How the results depend on the processing

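Among the 21 genes chosen by rule, no value that passed the test in either setting changed sign under the alternatives run. The signs of the other members were not compared. Genes of the other lists, Nfe2l1, Pomp, Ube3c, Erap1 and Rsad2 among them, were not rerun under the alternatives, so how far their calls depend on single arrays or scaling is not known. The number of genes called moved with the set of transcript clusters over which p was adjusted. On days 1, 3 and 14 and in the average it was 1, 0, 2 and 7 as reported, 4, 3, 8 and 13 among the transcript clusters above the background bound, 4, 4, 5 and 12 with 1 transcript cluster per gene symbol, and 3, 4, 3 and 11 above the median intensity. The F-test for days called 2 (Psmd7 and Psme4) above the background bound. With a trend and robust variances or with array weights, days 1 and 3 gave 2 and 1. Quantile normalization gave 2 at day 1 and 1 at day 14, with a median change of 0.13 at day 1. With the array medians set equal, day 1 gave 0, day 14 gave 1 and the average gave 4. The 8 arrays of a day fitted alone gave 0 at day 1 and 0 at day 14. A factorial test after that of the methods used treatment or its interaction with time, without the criterion on time alone. With its 1.8-fold minimum it gave 0 proteasome genes and 335 transcript clusters in all. As 0 of the 48 genes changed 1.8-fold on any day, that minimum alone fixed the 0. The paper reports a larger number of deregulated genes in heart. With 1 array left out, the count ran from 0 to 2 at day 1 (2 without rotenone rat 2, 0 without any of the other 7), stayed at 0 at day 3, and ran from 0 to 2 at day 14 (0 without rotenone rat 2 or 4 or control rat 2 or 3), from 6 to 8 in the average and from 0 to 1 for the F-test (Psme4, without rotenone rat 1 of day 14). The median change of day 1 ran from -0.0057 to 0.092, with its highest value without rotenone rat 2. The rat number as a replicate block gave 0 at day 1 and left 0, 2 and 6 for day 3, day 14 and the average, where Psmb4 was lost. Same-numbered rats correlated at r between -0.173 and 0.122 in their deviations, with 1 of 12 pairs over 0.1, so the numbers do not pair the rats. As a limit of signal, 13 of the 48 genes lay below the background bound.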

Other observations

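Among the 17 transcript clusters with a similar symbol that were not counted as members, 1 passed the limma test on a day or in the average. Psme1-ps1, annotated as a pseudogene of Psme1, fell by 0.58 ± 0.12 on the log2 scale at day 14 (adjusted p = 0.0107), with a mean of 5.98, below the background bound. It was chosen after its values were seen. Psme3-ps3, a pseudogene of Psme3 with a mean of 10.85, had changes of -0.03, 0.04 and -0.06 on days 1, 3 and 14. Whether probes of these transcript clusters also bind transcripts of Psme1 or Psme3 was not tested.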
